A study of Mus musculus with 108 samples.

Results

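The antioxidant response genes examined here were Nfe2l2, Keap1, Nqo1, Hmox1, Gclc, Gclm, Txnrd1, Sod1, Sod2 and Cat, 10 of the 26089 mouse genes with a curated RefSeq transcript on chromosomes 1 to 19 and X. They were chosen by name, as the sensor, the transcription factor and the best known enzymes of this response, and not by their values. Earlier results of these data were known at that time. For each gene, the chromatin state was read in the 200 bp bin that holds the transcription start site (TSS) of its longest curated transcript, in the TSS window (the TSS bin and 10 bins on either side, about 2 kb each way), in the gene body and in the 50 kb flanks.

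NRF2, the protein made from Nfe2l2, is the transcription factor of the response to oxidants and electrophiles. In unstressed cells KEAP1 binds NRF2 and brings it to a CUL3 ubiquitin ligase for degradation. When cysteines of KEAP1 are modified, NRF2 escapes, pairs with small MAF proteins and binds antioxidant response elements (AREs) near genes for quinone reduction, haem breakdown, glutathione synthesis and thioredoxin reduction. Superoxide dismutases and catalase remove superoxide and hydrogen peroxide directly, and the liver, which handles most xenobiotics, expresses these enzymes abundantly.

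The study followed 4 histone H3 marks in livers of inbred C57BL/6 female mice, by ChIP-seq on formalin-fixed, paraffin-embedded tissue. The group SD 3m held 8 mice aged 3 months on standard diet (30 libraries), SD 12m held 8 mice aged 12 months on standard diet (29 libraries), and CR 12m held 9 mice aged 12 months under 30% caloric restriction (29 libraries), which per the study's methods began at 3 months of age. A group of 6 mice aged 6 months on standard diet was not analysed here. The libraries of each group had been merged by mark before 1 of 8 states was assigned to each bin, so every group is 1 segmentation: no spread between mice, no error and no test can be given for any value below, and a difference between groups is a difference between these segmentations.

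In the study's key, state 1 (active TSS) and state 2 (flanking TSS) carry H3K4me3 with H3K27ac, and state 2 carries H3K4me1 as well. State 3 (active enhancer 1) carries H3K27ac with H3K4me1, state 4 (active enhancer 2) mainly H3K27ac, and state 5 (poised enhancer) mainly H3K4me1. State 6 is repressed Polycomb chromatin with H3K27me3, state 7, named for repeats and lamina-associated domains, carries weak H3K4me3 and little H3K27me3, and state 8 is quiescent, with none of the 4 marks. States 1 and 2 are called TSS states here, and states 3 to 5 enhancer states.

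In whole liver, all 6 hepatocyte markers had their TSS bin in states 1 to 5 in every group, whereas none of 3 genes of other organs (Pax6, Neurod1 and Myod1) did. Window bins in TSS states over these hepatocyte markers ranged from 0 to 15, 0 to 11 and 0 to 12 in SD 3m, SD 12m and CR 12m. There were 10, 9 and 2 at Alb, 3, 10 and 10 at Apoa1, and 10, 11 and 10 at Ttr. Cps1 had 13, 11 and 11, Tat had 15, 11 and 12, and Hnf4a had 0 in every group. Markers of other liver cells moved as well: the TSS bin lay in states 1 to 5 for 3, 2 and 1 of 4 Kupffer cell and leukocyte markers in SD 3m, SD 12m and CR 12m, for 3, 2 and 3 of 3 endothelial markers, for 1, 0 and 0 of 3 stellate cell markers and for 1, 2 and 2 of 3 cholangiocyte markers. Window bins in TSS states reached at most 10, 7 and 0 over the Kupffer cell and leukocyte markers, 9, 4 and 7 over the endothelial, 16, 2 and 0 over the stellate cell and 3, 0 and 8 over the cholangiocyte markers, with 0 as the lowest value in each set. Clec4f, Adgre1, Lyve1, Lrat and Krt19 had none in any group. Fewer cells of a type and less of a mark per cell cannot be told apart in such tissue. H3K4me3, the mark that TSS states carry and enhancer states lack, was merged from 7, 8 and 5 libraries in SD 3m, SD 12m and CR 12m. State 2 covered 1.13%, 0.425% and 0.361% of the genome in the 3 segmentations. What cell makeup or library number adds to the values below was not tested.

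Promoter sequence, of 250 bases before and 50 from the TSS onwards, was taken from a RefSeq table on GRCm38.p6, the assembly that mm10 names, and held 8 of the 10 members, while Hmox1 and Gclc are named only. The promoters shown are those of Nfe2l2, of Nqo1, Gclm and the longest Txnrd1 transcript, where the TSS bin changed state between groups, of a second Txnrd1 start further downstream, and of Sod1, where the TSS bin kept its state. Capitals mark matches to the ARE core TGACNNNGC on either strand, and matches to TATAAA. Each is printed 5′ to 3′ on the strand of its gene.
Nfe2l2, chr2:75704614-75704913, minus strand: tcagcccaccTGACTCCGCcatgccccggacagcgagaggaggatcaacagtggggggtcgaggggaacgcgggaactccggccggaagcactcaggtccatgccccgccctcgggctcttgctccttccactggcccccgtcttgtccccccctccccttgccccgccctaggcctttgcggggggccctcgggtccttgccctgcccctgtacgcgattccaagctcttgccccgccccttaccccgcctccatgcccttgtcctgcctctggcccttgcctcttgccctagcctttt
Nqo1, chr8:107403156-107403455, minus strand: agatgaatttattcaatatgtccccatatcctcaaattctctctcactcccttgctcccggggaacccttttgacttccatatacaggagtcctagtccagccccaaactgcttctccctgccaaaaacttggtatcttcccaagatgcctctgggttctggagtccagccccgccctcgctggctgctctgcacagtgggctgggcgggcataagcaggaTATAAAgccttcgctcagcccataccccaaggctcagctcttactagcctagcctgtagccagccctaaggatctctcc
Gclm, chr3:122245307-122245606, plus strand: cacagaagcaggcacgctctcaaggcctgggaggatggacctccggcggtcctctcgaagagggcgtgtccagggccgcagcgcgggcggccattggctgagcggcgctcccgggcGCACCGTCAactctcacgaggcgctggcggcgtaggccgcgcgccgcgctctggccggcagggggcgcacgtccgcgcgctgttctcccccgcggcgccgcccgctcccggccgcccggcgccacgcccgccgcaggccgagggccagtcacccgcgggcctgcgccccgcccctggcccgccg
Txnrd1 longest transcript, chr10:82833701-82834000, plus strand: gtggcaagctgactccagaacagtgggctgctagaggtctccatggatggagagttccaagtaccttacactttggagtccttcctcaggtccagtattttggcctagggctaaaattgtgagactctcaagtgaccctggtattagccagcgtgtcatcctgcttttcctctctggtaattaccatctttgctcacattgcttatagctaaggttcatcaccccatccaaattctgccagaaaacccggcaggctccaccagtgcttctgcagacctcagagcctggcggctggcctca
Txnrd1 downstream start, chr10:82858956-82859255, plus strand: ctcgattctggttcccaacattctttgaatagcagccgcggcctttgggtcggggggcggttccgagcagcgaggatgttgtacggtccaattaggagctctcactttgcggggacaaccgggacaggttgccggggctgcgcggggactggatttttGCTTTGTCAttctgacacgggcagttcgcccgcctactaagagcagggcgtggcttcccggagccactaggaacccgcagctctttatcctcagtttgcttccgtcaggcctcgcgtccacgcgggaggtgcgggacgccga
Sod1, chr16:90220512-90220811, plus strand: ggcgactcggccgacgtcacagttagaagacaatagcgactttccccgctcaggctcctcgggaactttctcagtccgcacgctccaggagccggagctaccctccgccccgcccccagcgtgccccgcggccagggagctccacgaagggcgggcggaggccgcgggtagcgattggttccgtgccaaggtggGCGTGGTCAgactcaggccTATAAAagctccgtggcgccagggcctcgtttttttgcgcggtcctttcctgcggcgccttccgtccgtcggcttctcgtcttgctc

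Counted from 0 at the TSS, the ARE core lay at -240 to -232 in Nfe2l2, at -134 to -126 in Gclm, at -92 to -84 before the downstream start of Txnrd1 and at -56 to -48 in Sod1. Of all 32851 promoters in the table, 12.4% held an ARE core. TATAAA was found in Nqo1 (-29 to -24) and Sod1 (-37 to -32), against 13.6% of all promoters. The AP-1 site TGAGTCA, whose reverse complement TGACTCA can be part of an ARE core when GC follows it, occurred in none of the promoters searched, those of 8 members. It occurred in 5.20% of all promoters. Hmox1 and Gclc had no sequence here and were not searched for any of these motifs. The GC box GGGCGG was present in every promoter of the 8 genes at the TSS used, except that of Txnrd1, and in 35.7% of all promoters. CpG dinucleotides ranged from 3 at the longest Txnrd1 transcript and 5 in Nqo1 through 11 in Cat, 13 in Keap1, 18 in Nfe2l2 and 21 in Sod2 to 34 in Sod1 and 48 in Gclm, beside a median of 7 over all promoters. These matches describe letters within the window and say nothing about binding.

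At the TSS itself, 5 members had the same state in all 3 groups: Nfe2l2, Sod1, Sod2 and Cat in state 1, and Gclc in state 4. Over all genes 55.4% had 1 state throughout. Between SD 3m and SD 12m the TSS bin differed in 3 members (Nqo1, Hmox1 and Gclm), beside 32.6% of all genes. Between SD 3m and CR 12m it differed in 4 (Keap1, Nqo1, Gclm and Txnrd1), beside 34.7%. Between SD 12m and CR 12m it differed in 3 (Keap1, Hmox1 and Txnrd1), beside 26.7%. The members' shares were thus near the background in each pair, and the pairs share segmentations, so their counts are not independent.

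**Figure D1:**
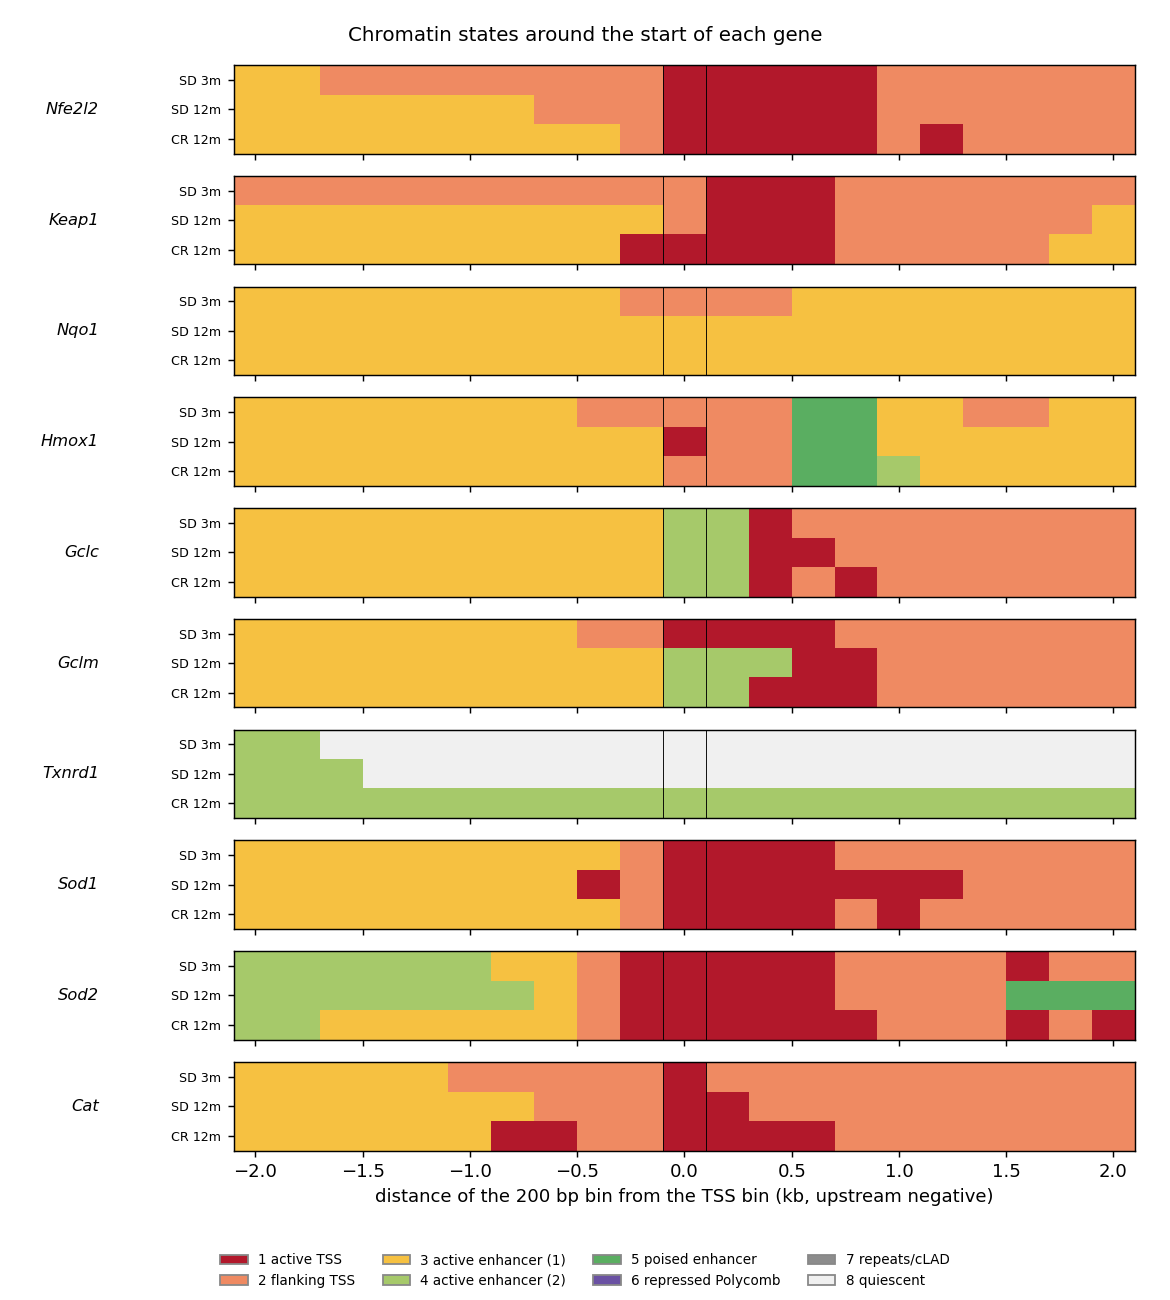
State of each 200 bp bin (colour) by distance from the TSS bin in kb, upstream negative, for the 10 members (blocks) in SD 3m, SD 12m and CR 12m (rows, 1 segmentation each); thin black lines bound the TSS bin. The flanking TSS state reaches further upstream in SD 3m at Nfe2l2, Keap1, Hmox1, Gclm and Cat, Nqo1 has TSS states in SD 3m alone, and the Txnrd1 window is wholly in state 4 in CR 12m.

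Nfe2l2 (chr2:75675513-75704663, minus strand, 5 exons) encodes the transcription factor. Its TSS bin was in state 1 in every group, and 19, 14 and 12 of the 21 window bins were in TSS states in SD 3m, SD 12m and CR 12m. Within the window the decline lay upstream, where 8, 3 and 1 of the 10 bins had a TSS state, while all 10 downstream bins had one in every group. The unbroken TSS-state run around the start reached beyond the window and measured 7000 bp in SD 3m, 4200 bp in SD 12m and 3600 bp in CR 12m. Its bins lay from -1600 to 5200 bp, from -600 to 3400 bp and from -200 to 3200 bp, so the run shortened on both sides. Bins that left the TSS states in the window took state 3. In the gene body state 3 covered 79.6%, 87.8% and 88.4% of bins, and no body bin was in states 4 to 8.

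Keap1 (chr9:21229730-21239332, minus strand, 6 exons), the sensor that holds NRF2 back, had more TSS-state bins around its start in SD 3m than any other member. All 21 window bins were in TSS states in SD 3m, against 10 in SD 12m and 10 in CR 12m. Of the 10 upstream bins, 10, 0 and 1 had a TSS state, and of the 10 downstream bins 10, 9 and 8. The run of TSS states shortened from 5800 bp in SD 3m to 2000 bp in both groups aged 12 months, and its TSS bin was in state 2 in SD 3m and SD 12m and in state 1 in CR 12m. The window differed in 11 of 21 bins between SD 3m and SD 12m, in 13 between SD 3m and CR 12m, and in 3 between SD 12m and CR 12m. Its whole upstream flank kept to states 1 to 5 in every group, with state 3 at 45.2%, 75.2% and 88.0%. S1pr5, which starts 9.11 kb upstream of Keap1 and lies in that flank, had 4, 0 and 0 TSS-state bins around its own start. In the downstream flank state 8 covered 26.0% in SD 3m and no bin in the other groups, and state 4 covered 30.0%, 70.0% and 64.0%.

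Nqo1 (chr8:107388225-107403205, minus strand, 6 exons) encodes the NAD(P)H quinone reductase, a classical NRF2 target. In SD 3m 4 window bins, from 200 bp upstream to 400 bp downstream, were in state 2, and the other 17 were in state 3. In SD 12m and CR 12m all 21 bins were in state 3, so no TSS state was left within 2 kb. The same order of states at the TSS bin (2, 3, 3) occurred in 482 genes, or 18.7% of the genes that were in state 2 in SD 3m. Along the gene body state 3 covered 26.3%, 52.6% and 59.2%, state 5 25%, 2.63% and 2.63%, and state 8 21.1%, 0% and 0%. The body bins with another label made up 47.4% between SD 3m and SD 12m and 52.6% between SD 3m and CR 12m, against 9.21% between the groups aged 12 months.

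Hmox1 (chr8:75093618-75100593, plus strand, 5 exons) encodes haem oxygenase 1, which opens the haem ring to biliverdin, iron and carbon monoxide. TSS states held 7, 3 and 3 window bins in SD 3m, SD 12m and CR 12m, and in both groups aged 12 months they ran for 600 bp from the TSS bin downstream. The TSS bin itself was in state 2, state 1 and state 2. From 600 to 800 bp downstream, 2 bins were in the poised enhancer state 5 in every group, between bins with TSS and active enhancer states. Downstream of the gene the flank was mostly quiescent, with state 8 at 68.0%, 74.8% and 78%. Mcm5, a replication gene whose start lies 15.9 kb downstream, had its TSS bin in state 1 in every group.

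Gclc (chr9:77754535-77794489, plus strand, 16 exons) encodes the catalytic subunit of glutamate-cysteine ligase, the rate-limiting enzyme of glutathione synthesis. It had the steadiest window of the 10 with respect to SD 3m. TSS states held 9 of 21 bins in every group, all of them downstream of the TSS from 400 bp on, and the window differed in 1, 1 and 2 bins in the 3 pairs. The TSS bin and its downstream neighbour were in state 4 and all 10 upstream bins in state 3 in every group. The downstream flank moved more, with state 3 over 36.0%, 55.2% and 80.4% of bins and state 4 over 55.6%, 44.8% and 19.6%.

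Gclm (chr3:122245557-122267215, plus strand, 7 exons) encodes the modifier subunit of the same ligase. In SD 3m the TSS bin and the next 3 bins were in state 1, whereas in SD 12m and CR 12m the TSS bin was in state 4 and the TSS states began 600 bp and 400 bp downstream. Window bins in TSS states numbered 13, 8 and 9. In the groups aged 12 months its start thus had the layout that Gclc had in all groups, state 3 upstream, state 4 at the TSS and TSS states further into the gene. The change from state 1 to state 4 in both older groups occurred in 430 genes, 5.46% of those in state 1 in SD 3m. Its promoter, printed above, held 48 CpG dinucleotides, more than 98.8% of promoters.

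Txnrd1 (chr10:82833951-82897724, plus strand, 15 exons) encodes the cytosolic thioredoxin reductase, which hands electrons from NADPH to thioredoxin. Its curated transcripts have 3 starts, and the states differed sharply between them. The longest transcript begins in quiescent chromatin: 19 and 18 of its 21 window bins were in state 8 in SD 3m and SD 12m, and all 21 were in state 4 in CR 12m. No bin of that window was in a TSS state in any group. The start shared by 2 transcripts at position 82859206 had its TSS bin in states 2, 1 and 2, with 14, 14 and 10 window bins in TSS states. At the remaining start, position 82860341, the TSS bin was in states 2, 2 and 1, with 16, 14 and 10. Gm38560, an antisense gene within the Txnrd1 body, starts at position 82859008 beside the shared start, so the TSS states there belong to both genes and cannot be assigned to either.

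Over the whole Txnrd1 body, state 8 covered 19.7%, 6.88% and 0% and state 3 covered 37.2%, 45.6% and 62.5%. Its upstream flank held a Polycomb stretch in SD 3m alone, with state 6 at 21.2%, 0% and 0%. In the downstream flank state 6 went from 3.60% in SD 3m and SD 12m to 21.2% in CR 12m, in a region that was otherwise mostly quiescent.

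Sod1 (chr16:90220762-90226333, plus strand, 5 exons) encodes the cytosolic copper-zinc superoxide dismutase. The window held 12, 13 and 12 TSS-state bins, all 10 downstream bins among them in every group, and it differed in 4 bins between SD 3m and SD 12m, in 1 between SD 3m and CR 12m and in 3 between the older groups. State 1 alone held 4, 8 and 5 bins. Inside this short gene state 2 gave way to state 3, with state 2 at 65.5%, 27.6% and 41.4% of body bins and state 3 at 20.7%, 48.3% and 41.4%. Far upstream, a Polycomb stretch covered 25.6%, 18.4% and 0% of the flank.

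Sod2 (chr17:13007839-13018119, plus strand, 5 exons) encodes the mitochondrial manganese superoxide dismutase. TSS states held 13, 10 and 13 window bins in SD 3m, SD 12m and CR 12m. The 3 bins from 1600 to 2000 bp downstream were in TSS states in SD 3m and CR 12m and in state 5 in SD 12m. The window differed in 4 bins between SD 3m and SD 12m, in 6 between SD 3m and CR 12m and in 9 between the older groups, which were thus furthest apart, as they also were at Gclc. Its downstream flank was the one region that did not differ in any bin between groups: every bin was in state 8 in every group, directly after a gene that lay mostly in states 1 to 5. Upstream, Wtap, which starts 15.3 kb away, had its TSS bin in state 1 throughout.

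Cat (chr2:103453904-103485153, minus strand, 13 exons) encodes catalase, the peroxisomal enzyme that splits hydrogen peroxide. The window held 16, 14 and 15 TSS-state bins, with 5, 3 and 4 upstream and all 10 downstream in every group. State 1 took up more of them at 12 months, with 1, 2 and 6 bins. The TSS-state run, at 7600 bp, was the longest of the 10 in SD 3m and shortened to 6800 bp and 5200 bp. Of its body bins 1.91% differed between SD 3m and SD 12m, fewer than in any other member. The flanks changed far more, by 46.8% between SD 3m and SD 12m and 49.4% between SD 3m and CR 12m. In the upstream flank TSS states 1 and 2 held 4.00% and 16.4% of bins in SD 3m, against 0% and 1.20% in SD 12m, and in the downstream flank state 6 covered 31.6% of bins in SD 3m and none in either older group.

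**Figure D2:**
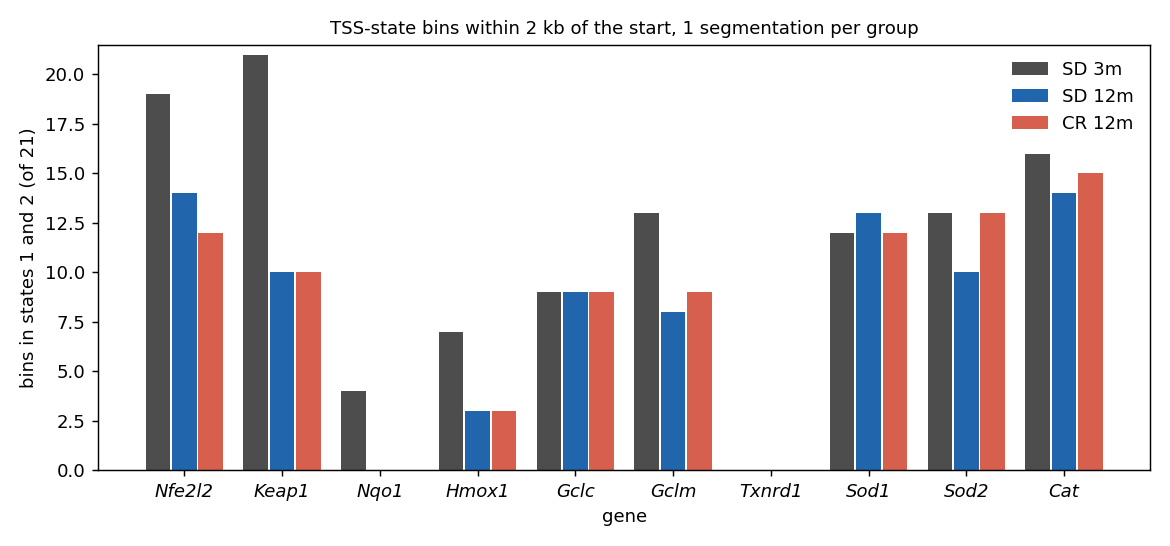
Number of the 21 window bins in states 1 and 2 for each member (x axis) in SD 3m, SD 12m and CR 12m (bars, 1 segmentation each, no error bars because there are no replicates). Bars fall from 19 to 14 and 12 at Nfe2l2 and from 21 to 10 and 10 at Keap1, stay at 9 at Gclc, and are 0 at the longest Txnrd1 transcript.

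Over the 10 windows, the median number of TSS-state bins was 12.5 for SD 3m and 9.50 for both SD 12m and CR 12m, while the median over all genes was 0 in each group and the mean over all genes 6.07, 3.93 and 3.45. At least 5 fewer TSS-state bins than in SD 3m were found in 3 members in SD 12m (Nfe2l2, Keap1 and Gclm), beside 22.6% of all genes, and in 2 members in CR 12m (Nfe2l2 and Keap1), beside 27.2%. No member gained 5 or more in SD 12m, beside 0.395% of all genes, or in CR 12m, beside 0.287%. Because most genes have no TSS state near their start, the 12663 genes with such a bin in any group form a closer background, chosen after the values were seen. A gene can enter this set through SD 3m alone, as Nqo1 did, and every gene that lost at least 5 such bins is in it by definition. Among these, which include every member except Txnrd1 at the start used, a loss of at least 5 bins was found in 46.5% in SD 12m (3 of 9 members) and in 56.0% in CR 12m (2 of 9 members). Another TSS state was found in 30.3% in SD 12m (3 of 9 members) and in 37.9% in CR 12m (3 of 9 members). Because the filter rests on the same labels as the loss, the members' counts are set beside these shares as description only.

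Within the 2 kb window the change was uneven around the start. Summed over members, upstream bins in TSS states numbered 31, 10 and 9 in SD 3m, SD 12m and CR 12m, and downstream bins 75, 65 and 68. In the 12663 genes with TSS states the mean per gene was 4.58, 2.51 and 2.10 upstream and 7.09, 4.87 and 4.37 downstream, so both sides declined there too. The window cuts off longer runs, so downstream loss beyond 2 kb is not counted. At Cat the TSS-state run ended 6400, 6000 and 4200 bp downstream. It also ended nearer the start in both older groups at Nfe2l2, Keap1, Gclm and Sod1. The ends were 2200, 2200 and 3000 bp at Gclc, 2200, 1400 and 2200 bp at Sod2, and 400 bp in every group at Hmox1. At 1000 bp or more upstream no member had a TSS state in either group aged 12 months, and 3 had one at 1000 bp in SD 3m. From 600 to 1200 bp downstream 7 members had a TSS state in every group. The fall in TSS states was a fall in state 2: it held 90, 53 and 48 of the 210 window bins, and state 1 held 24, 28 and 35. Over all genes the mean number of state 1 bins was 1.79, 1.86 and 1.59, and over the 12663 genes 3.70, 3.83 and 3.28. H3K4me3 library numbers (7, 8 and 5) differ between the groups beside these counts, and their part was not tested.

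**Figure D3:**
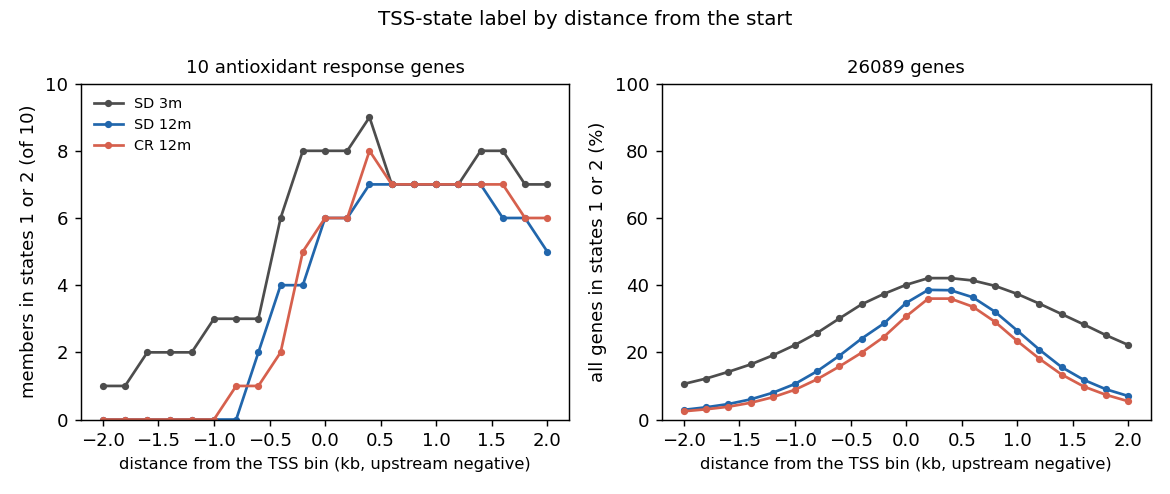
Left, number of the 10 members with state 1 or 2 by distance from the TSS bin in kb (upstream negative). Right, percent of all 26089 genes with these states; lines are SD 3m, SD 12m and CR 12m. Upstream of the start the SD 3m line lies above both lines for 12 months in members and in all genes, while 600 to 1200 bp downstream the 3 member lines coincide at 7.

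The state that replaced state 2 was mostly state 3, which differs from it by the lack of H3K4me3. SD 3m had 90 window bins with the state 2 label, of which SD 12m gave 28 (31.1%) and CR 12m 29 (32.2%) the state 3 label, beside 55.2% and 61.5% of all state 2 bins of the genome. A further 7 (7.78%) were in state 1 in SD 12m and 13 (14.4%) in CR 12m, beside 6.70% and 5.62% of the genome's. The genome's shares count state 2 bins wherever they lie, not in TSS windows alone. Enhancer states made up 36.7%, 52.9% and 60.5% of the members' window bins. That is a mean of 7.70, 11.1 and 12.7 bins per window, near the 7.43, 11.8 and 12.8 of the 12663 genes with TSS states. No window bin of any member was in state 6 or 7 in any group, and the 19, 18 and 0 quiescent bins were all those of Txnrd1. In windows of the 12663 genes with TSS states, state 6 averaged 1.43%, 0.986% and 1.05% of bins in the 3 groups, and state 7 1.23%, 1.16% and 0.440%.

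In the 210 window bins, 44 (21%, Wilson 95% interval 16.0 to 27%) differed between SD 3m and SD 12m, 68 (32.4%, 26.4 to 39.0%) between SD 3m and CR 12m and 45 (21.4%, 16.4 to 27.5%) between SD 12m and CR 12m. The intervals cover counting of bins only and are too narrow, since neighbouring bins share their state. Txnrd1 alone gave 1, 19 and 18 of these bins. Per member the median was 4.00, 5.50 and 3.00 bins, beside 7, 7 and 4.00 over all genes and 8, 9 and 5 over the 12663 genes with TSS states. At least 11 bins differed in 1 member (Keap1) between SD 3m and SD 12m, beside 30.9% of all genes, and in 2 (Keap1 and Txnrd1) between SD 3m and CR 12m, beside 34.3%.

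Sorting window bins by the group that stood apart, 133 of 210 had the same state in all 3 groups (63.3%, genome 60.7%). SD 3m alone differed in 32 (15.2%, genome 14.7%), SD 12m alone in 9 (4.29%, genome 15.1%), CR 12m alone in 33 (15.7%, genome 7.39%), and in 3 all groups differed. The genome shares count every bin, and 66.1%, 51.6% and 62.7% of these were quiescent in SD 3m, SD 12m and CR 12m. They are thus no matched background for TSS windows, and the shares over windows of other genes were not computed. Of the 33 bins in which CR 12m stood apart, 18 were in the Txnrd1 window, and the other 15 were spread over Sod2 (5), Nfe2l2 and Cat (3 each), Keap1 (2), Hmox1 and Gclc (1 each). The 32 bins in which SD 3m stood apart lay mainly in Keap1 (10), Nfe2l2 (5), Gclm (5), Nqo1 (4) and Hmox1 (4).

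**Figure D4:**
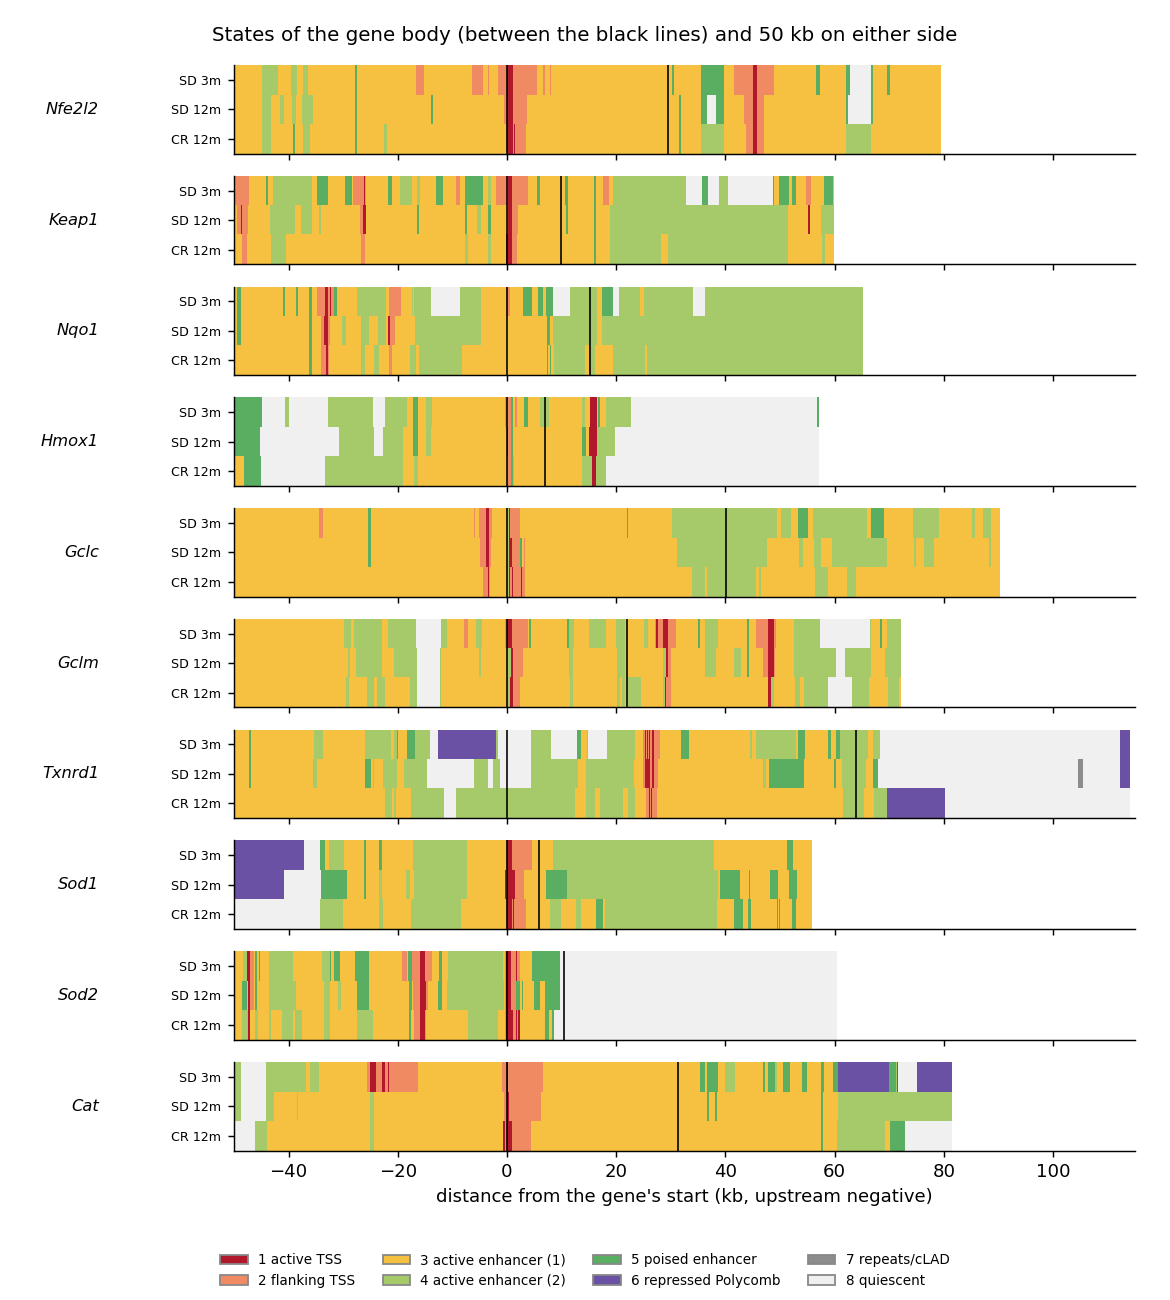
State of each 200 bp bin (colour) in the gene body, between the black lines, and 50 kb on either side, by distance from the gene's start in kb (upstream negative), for the 10 members in SD 3m, SD 12m and CR 12m (rows). Gene bodies lie mostly in state 3, Polycomb stretches in SD 3m upstream of Txnrd1 and downstream of Cat are missing in both older groups, and the flank after Sod2 is quiescent throughout.

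The bodies of the 10 genes held 1176 bins, and none of these was in state 6 or 7 in any group. State 3 was the most frequent label and covered 54.4%, 65.1% and 73.2% of them in SD 3m, SD 12m and CR 12m. State 5 fell from 6.89% to 5.36% and 0.765%, and state 8 from 7.06% to 2.21% and 0.765%. Of the members' 83 quiescent body bins in SD 3m, which lay in Txnrd1, Nqo1 and Sod2, 57 (68.7%) were in state 4 in SD 12m and 71 (85.5%) in CR 12m, beside 2.26% and 2.62% of all quiescent bins of the genome. Of the members' 81 body bins in state 5, 52 (64.2%) and 67 (82.7%) were in state 3, beside 17.2% and 27.1% of the genome's. These genome shares count bins inside and outside genes, so they are no matched background for gene bodies, and the share of such changes over other gene bodies was not computed. Txnrd1 alone held 63 of the 83 quiescent bins, in stretches of neighbouring bins. The share of body bins with another label had a median over members of 25.4% between SD 3m and SD 12m, 29.3% between SD 3m and CR 12m and 8.11% between SD 12m and CR 12m, beside 25%, 26.3% and 14.9% over all genes. In no member did at least 50% of the body differ between SD 3m and SD 12m, beside 23.4% of all genes, and in 1 member, Nqo1, between SD 3m and CR 12m, beside 25%.

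In the flanks, 5000 bins in all, state 3 covered 40.4%, 47.4% and 54.9% and state 6 held 205, 55 and 53 bins. The Polycomb bins of SD 3m lay in the flanks of Cat, Sod1 and Txnrd1. Flank bins with another label had a median over members of 19.9%, 27.4% and 16.2% in the 3 pairs, beside 29.8%, 31.0% and 20% over all genes. Cat (46.8%) and Keap1 (42.0%) had the highest values between SD 3m and SD 12m, and Sod2 (6.60%) the lowest. Starts of other genes lie in some of these flanks, and their bins are counted with the flank. Only some of them are named above. Others include Hnrnpa3 downstream of Nfe2l2, Atg4d and Kri1 upstream of Keap1, and Nob1 and Wwp2 upstream of Nqo1. Dnttip2 starts downstream of Gclm and Acat2 upstream of Sod2.

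**Figure D5:**
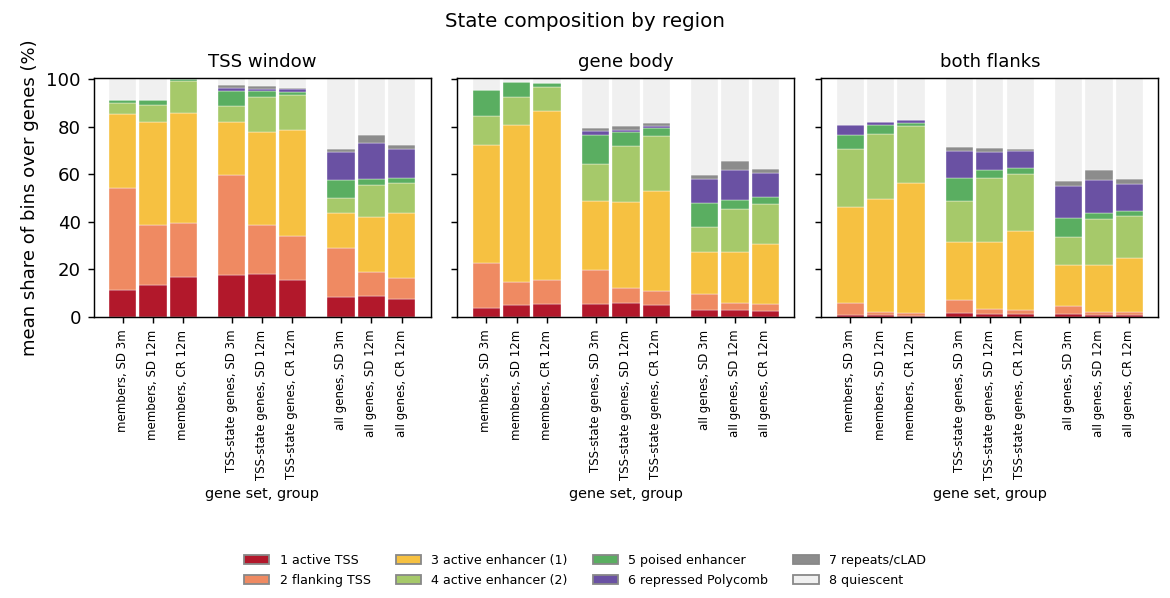
Mean share of bins in each state (percent, stacked to 100) in the TSS window, gene body and both flanks for the 10 members, for the 12663 genes with a window bin in state 1 or 2 in any group (TSS-state genes) and for all 26089 genes, each in SD 3m, SD 12m and CR 12m. State 2 is lower and state 3 higher in both groups aged 12 months than in SD 3m in each of the 3 gene sets and regions. The members' gene bodies hold no state 6 or 7, and those of TSS-state genes hold little of either.

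Among other genes of the antioxidant pathway, a list of 42 covering NRF2 partners, glutathione, thioredoxin and peroxiredoxin, NADPH supply, iron and haem, and further NRF2 targets, the median number of TSS-state bins per window was 14.0, 8 and 8.50 for SD 3m, SD 12m and CR 12m. The TSS bin had another state in 12 (28.6%), 16 (38.1%) and 11 (26.2%) of them in the 3 pairs, beside 32.6%, 34.7% and 26.7% of all genes, and kept 1 state in 23, beside 55.4% of all genes. These shares were near the background. At least 5 TSS-state bins fewer than in SD 3m were found in 21 of the 42 in SD 12m, beside 22.6% of all genes and 46.5% of the genes with TSS states, and in 27 in CR 12m, beside 27.2% and 56.0%. The genes with TSS states include every gene with such a loss by definition. Gains of 5 or more bins were found in 0 in both.

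The 6 with the most differing window bins between SD 3m and SD 12m were Slc7a11 and Sod3 (21 each), Srxn1 (18), and Cbr3, Fth1 and Prdx2 (13 each, a number that Rbx1 shared). Slc7a11, which brings cystine into the cell for glutathione synthesis, had its TSS bin in state 8 in SD 3m and in the Polycomb state 6 in SD 12m and CR 12m, with no TSS state in any window. Sod3, the extracellular superoxide dismutase, went from state 5 to state 4 in both older groups. Srxn1, the sulfiredoxin that repairs oxidised peroxiredoxins, had 10, 5 and 3 TSS-state bins and its TSS bin in states 1, 4 and 4, the order also found at Gclm. Fth1, the ferritin heavy chain, had 15, 2 and 3 such bins, with the TSS bin in states 2, 3 and 3 as at Nqo1, and Prdx2, a peroxiredoxin, had 21, 8 and 9 with the TSS bin in state 2 throughout. At Cbr3, a carbonyl reductase, the counts were 10, 4 and 6 with the TSS bin in state 1 throughout. Prdx4, the X-linked peroxiredoxin of the endoplasmic reticulum, was the other gene of the list outside states 1 to 5, with its TSS bin in states 4, 7 and 6.

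By the number of identical labels among 63 (21 bins in 3 groups), the gene most like each member, or the alphabetically first where genes tied, was Cnbp for Nfe2l2 (59 identical), Mef2d for Keap1 (58), Gm9895 for Nqo1 (62), 2310030G06Rik for Hmox1 (54), Rap1a for Gclc (57), Mbd2 for Gclm (58), Mir1258 for Txnrd1 (61), Slc35f5 for Sod1 (56), Ndufs4 for Sod2 (48) and Nek7 for Cat (57). The best match was a single gene for Hmox1 and Cat alone, while 4 genes tied for Nqo1 and 2 for each of the other members. The median over all genes was 6.00 to 9 identical labels for the 10 members. Sod2 thus had the fewest labels in common with its best match, while its median over all genes, 9, was the highest of the 10. Labels of neighbouring bins and of the 3 groups are not independent, and the measure describes likeness of the maps alone.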

How the data were processed

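Libraries of H3K4me3, H3K27me3, H3K27ac and H3K4me1 came from formalin-fixed, paraffin-embedded mouse liver. Per the labels and the study's methods, the authors aligned reads to mm10 with BWA 0.6.2-r126, handled alignments with SAMtools 0.1.18, merged the replicates of each group and mark, and assigned 1 of 8 states per 200 bp bin with ChromHMM. The deposited values are thus state labels, not counts, and read depth behind a label is unknown. Merging hides differences between mice.

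From the 3 deposited segmentations, state labels were read at RefSeq positions on GRCm38.p6 for the longest curated transcript of each gene (Python 3.11.15, numpy 2.4.6, pandas 2.3.3). A TSS bin was called changed when its label differed. A window was called when at least 5 fewer or more of its 21 bins were in TSS states, or at least 11 bins had another label, and a body when at least 50% of bins had. Shares over all 26089 genes served as background. The bin comparison was tested on simulated maps.

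All members were described. The pathway list of 42 genes, the 22 cell type markers and the members were chosen with earlier results of these data known. From the pathway list, the 6 genes with the most differing window bins between SD 3m and SD 12m and those with a TSS bin in states 6 to 8 were named. For each member the gene with the most identical labels, starting over 5 kb away, was named. The alternatives tried were other TSS choices, window and flank widths, merged states and protein-coding genes only.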

Additional observations from a re-analysis of the deposited data

How the results depend on the processing

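No paired analysis was possible because libraries were merged into 1 segmentation per group before states were assigned, and for the same reason no mouse could be left out. Merging the 8 states into 5 classes (TSS, enhancer, 6, 7 and 8) left 1 member with another TSS bin class between SD 12m and CR 12m. It lowered the share of bins with another label to 23.8% (SD 3m to CR 12m) and 13.3% (SD 12m to CR 12m) in the windows, to 9.18%, 12.6% and 4.59% in the 3 pairs in gene bodies, and to 11.1%, 14.3% and 6.82% in flanks. Window width set the share of bins in states 1 and 2: with 5 bins on either side it was 62.7% in SD 3m and 45.5% in SD 12m, and with 25 bins 37.1%, 23.9% and 23.3% in SD 3m, SD 12m and CR 12m. With 5 bins, 39.1% of bins differed between SD 3m and CR 12m. The start shared by most transcripts, an alternative chosen after seeing the data that changes Txnrd1 alone, gave 61% in SD 3m. Flanks of 20 kb gave 34.3% (SD 3m to CR 12m) and 19.9% (SD 12m to CR 12m), and flank bins outside other genes 18.5% (SD 3m to SD 12m) and 27.7% (SD 3m to CR 12m). The other 34 values of members moved less than their binomial interval, or at most 1.5 times for counts. The order SD 3m above both older groups for states 1 and 2 held at each window width. These intervals treat bins as independent, which they are not. Restricting the background to protein-coding genes moved 7 of 11 shares beyond their interval. Depth per library was unknown, so its effect on any label was not tested.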
